A study of Mus musculus with 6 samples.

Results

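The acute phase genes described here encode serum amyloid A (Saa1, Saa2, Saa3 and Saa4), the orosomucoids (Orm1 and Orm2), haptoglobin (Hp), lipocalin 2 (Lcn2), serum amyloid P component (Apcs) and inter-alpha-trypsin inhibitor heavy chain 4 (Itih4). They were chosen by gene symbol, and all 10 were found among the 24421 genes of the deposited table. Hepatic mRNA was sequenced from 3 WT mice and 3 mice heterozygous for a null allele of Pai-1. All 6 animals were C57BL/6 mice aged 21 weeks by the sample labels (the study's text writes C57BL/6 J and gives a slightly lower age), on standard chow and fed without restriction. The labels call the WT animals male, and the study describes both genotypes as male littermates. The study's methods say that the heterozygotes came from a cross of Pai-1-/- with WT mice. That cross alone gives no WT offspring, and how the WT littermates arose is not stated. The heterozygotes carried the null allele in every tissue, not in the liver alone.

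The study asked how the genotypes differ. That comparison is not given here for these genes, because the counts per animal carry animal numbers that match no sample label, and no genotype was assigned to them. The measurement used is the mean normalized count, which the authors obtained by scaling each library's counts by its size factor and averaging the libraries. It pools both genotypes, and no spread between mice, SD or test belongs to it. Each value below describes the liver of these 6 mice as a whole, and a difference between genes is given as a size without an error. The mean over libraries does not show whether 1 mouse carried a high value.

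The acute phase response is the change in plasma proteins that follows infection or injury. Interleukin 6, interleukin 1 and tumour necrosis factor act on hepatocytes through STAT3, C/EBP factors and NF-kB, and the liver secretes more of the positive acute phase proteins and less of the negative ones, such as albumin and transthyretin. In the mouse, Saa1 and Saa2 are the inducible amyloid A proteins that circulate on high density lipoprotein, Saa3 is also made by macrophages and adipocytes, and Saa4 is the constitutive form. Serum amyloid P component is a major acute phase pentraxin of the mouse, in which C-reactive protein responds little.

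Several members are close copies of each other, so the sequences come first. Saa1 lies at chr7:46740497-46742980 on the minus strand and Saa2 at chr7:46751790-46754313 on the plus strand of GRCm38 (mm10), 8.81 kb apart and pointing away from each other. Their coding sequences of 366 bases were 95.1% identical and differed at 18 positions. The 150 bases from coding base 40 to 189 are shown and hold 12 of the 18 differences, so the pair is more alike elsewhere. Among stretches of that length that start at the first base of a codon, none holds more. Capitals mark the bases at which the genes differ.
Saa1: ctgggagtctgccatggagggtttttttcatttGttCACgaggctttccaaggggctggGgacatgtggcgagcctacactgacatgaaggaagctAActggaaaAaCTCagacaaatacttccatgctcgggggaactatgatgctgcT
Saa2: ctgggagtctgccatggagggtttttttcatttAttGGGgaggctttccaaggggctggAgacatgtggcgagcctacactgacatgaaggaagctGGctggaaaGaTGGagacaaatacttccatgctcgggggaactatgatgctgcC

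The orosomucoids formed a second set of copies. Orm1 lies at chr4:63344560-63348163 and Orm2 at chr4:63362449-63365878, both on the plus strand, with Orm3 between them at chr4:63356162-63359511. The coding sequences of Orm1 and Orm2, each of 621 bases, differed at 63 positions and were 89.9% identical. Coding bases 139 to 288 are shown by the same rule and hold 29 of those differences, again in capitals.
Orm1: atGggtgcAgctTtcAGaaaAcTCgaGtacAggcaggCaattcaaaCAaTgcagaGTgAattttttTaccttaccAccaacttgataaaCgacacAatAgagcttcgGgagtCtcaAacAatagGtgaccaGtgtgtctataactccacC
Orm2: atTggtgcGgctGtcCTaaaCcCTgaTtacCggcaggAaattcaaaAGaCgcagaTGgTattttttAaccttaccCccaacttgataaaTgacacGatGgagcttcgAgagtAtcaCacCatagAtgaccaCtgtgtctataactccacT

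Reads were 75 bases long, so each transcript was cut into all its windows of 75 bases and every window was searched, unchanged and on either strand, in all annotated transcripts of other genes, those with retained introns included. Windows shared with another gene made up 13.8% in Orm1 and 14.0% in Orm2, where 97 of 701 windows were common to the pair. Saa1 shared 25 of 535 windows with Saa2, or 4.67%, and 6 of the 578 windows of the longer Saa2 transcript, or 1.04%, matched Saa1. No window of Saa3, Saa4, Hp, Lcn2, Apcs or Itih4 was found in another gene. No other annotated gene overlapped a member. How reads that fit more than 1 gene were counted is not given in the sources used here, so the single values of Orm1 and Orm2, and to a smaller degree of Saa1 and Saa2, are uncertain by what such windows hold. Copies outside annotated transcripts were not looked for.

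**Figure D1:**
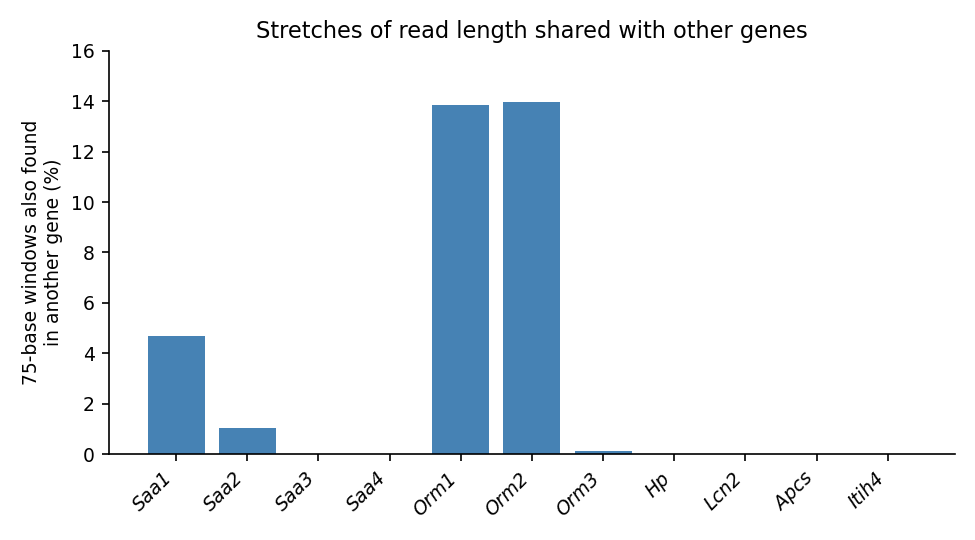
Share of 75-base windows (%, y axis) of each gene's principal transcript that occur unchanged in a transcript of another gene, for the members and Orm3 (x axis). Orm1 and Orm2 reach 13.8% and 14.0%, Saa1 4.67%, Saa2 1.04% and Orm3 0.143%, and the other genes are at 0.

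All 10 members were above a mean normalized count of 10, as were 12971 of all 24421 genes. All 10 were also above 100, a cutoff at which the other genes were not counted. Together the members held 1.02% of the total of 30045982. Their mean normalized counts ran from 335 for Saa3 to 127720 for Hp, with a median of 11543, beside a median of 440 over the 12971 genes above 10. Because long transcripts give more reads, levels are compared between genes per kilobase of the principal transcript, the main coding transcript marked in the GENCODE annotation. On that scale the median was 15834 for the members and 142 for all genes above 10. With the longest annotated transcript, the length planned at first, these medians were 7028 and 129. In the ranking of the 12499 genes with a known length, 9 of the 10 members stood in the highest 10%, and Saa3 at rank 2476 did not. With the longest transcripts Saa3 was at rank 5754. The members were proposed with earlier results of these data in view, so this place in the ranking is a description.

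**Figure D2:**
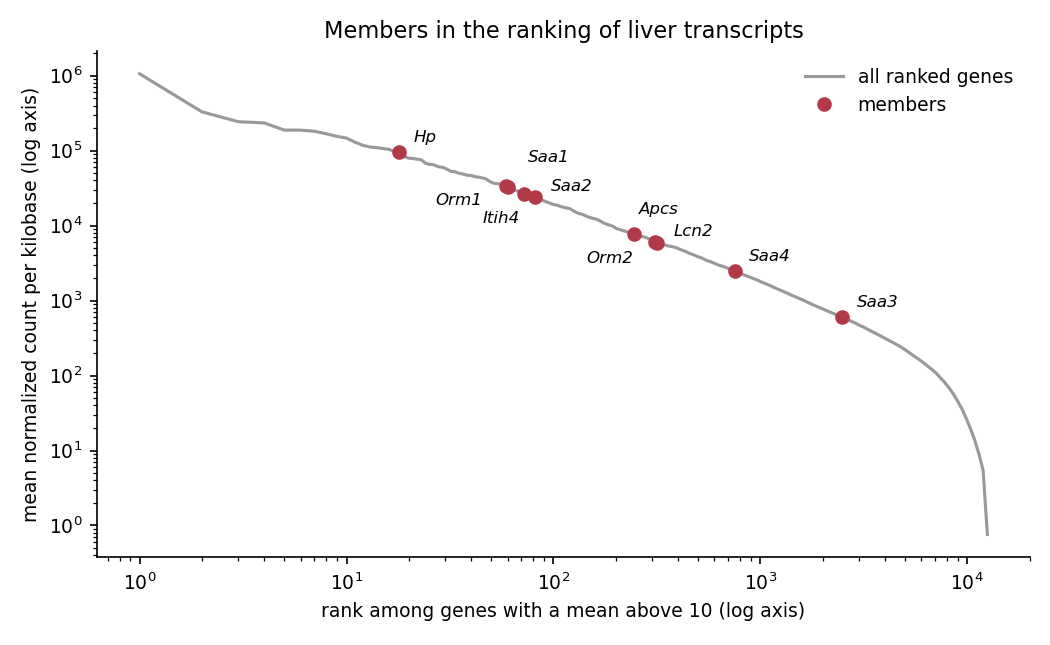
Mean normalized count per kilobase (y axis, log) against rank among the 12499 genes above 10 with a known length (x axis, log). The grey line is all ranked genes and the red points are the 10 members, from Hp at rank 18 to Saa3 at rank 2476.

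Haptoglobin, which binds free haemoglobin in plasma, was the most abundant member. Hp had a mean normalized count of 127720, or 0.425% of the total, and stood at rank 28 of all genes. Per kilobase it reached 94959 and rank 18. Alb, which encodes albumin, was 11.2 times as high per kilobase. Hp was at 0.891 of the level per kilobase of Hpx, which encodes the haem-binding protein hemopexin. Hp lies at chr8:109575128-109579172 on the minus strand and its principal transcript has 5 exons and 1345 bases.

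Itih4, whose product is related to the heavy chains that are linked to hyaluronan, was second in mean normalized count with 94261, at rank 38. It lies at chr14:30886476-30902353. Its principal transcript of 3531 bases was the longest among the members, and per kilobase it stood at 26695, behind Hp, Orm1 and Saa1. With the longest transcripts it stood ahead of Saa1. The neighbouring genes Itih3 and Itih1, on the opposite strand, stood at 22413 and 8172 per kilobase. Itih4 was thus 1.19 times the level of Itih3 and 3.27 times that of Itih1, and among the 4 genes Itih1 to Itih4 it held 35.8% of the sum per kilobase.

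Among the orosomucoids, plasma carriers of basic drugs and modulators of immunity, Orm1 was the leading transcript. Its mean normalized count was 25899, against 4607 for Orm2 and 799 for Orm3, a further copy that sits between them. Orm1 was 5.62 times Orm2 per kilobase, and Orm2 was 5.75 times Orm3 per kilobase. The share of Orm1 in the sum of the 3 genes per kilobase was 82.7%, that of Orm2 14.7% and that of Orm3 2.56%. The 3 transcripts are of nearly equal length, 773 to 775 bases, so length hardly enters these ratios, whereas the windows common to Orm1 and Orm2 could.

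**Figure D3:**
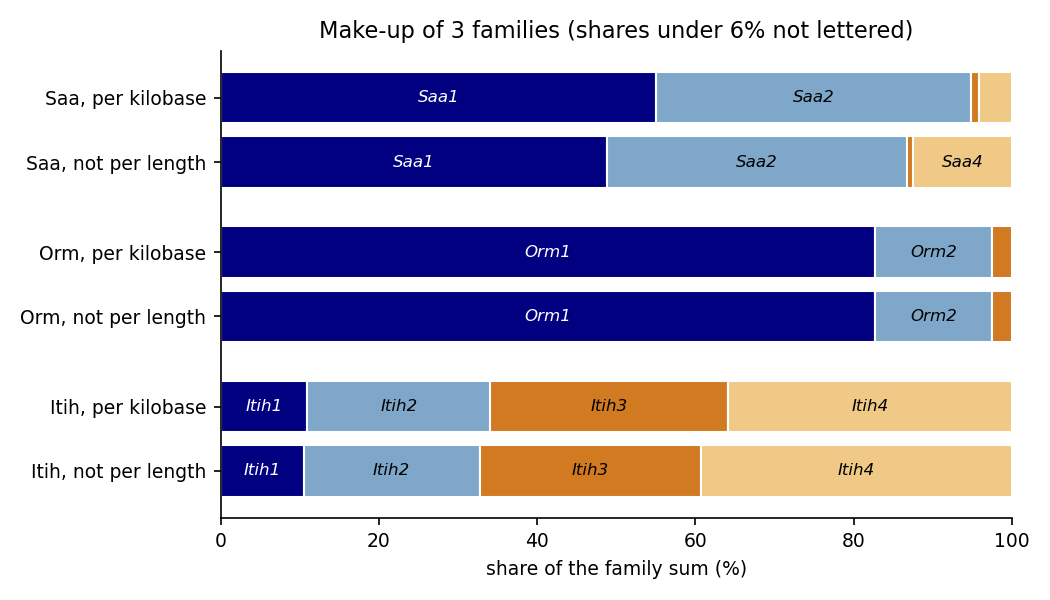
Share of each gene in the sum over its family (x axis, %), per kilobase and not divided by length, for the Saa, Orm and Itih genes. Bars run in gene order from left to right, and the unlettered pieces are Saa3 (both bars), Saa4 (per kilobase) and Orm3. Saa1 and Saa2 hold 94.9% of the Saa sum per kilobase and 86.7% undivided.

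The Saa genes stood within 42.3 kb of chromosome 7 in the order Saa3, Saa4, Saa1 and Saa2, with the pseudogene Saa-ps between Saa4 and Saa1. The mean normalized count was 20196 for Saa1 and 15664 for Saa2, and per kilobase the inducible pair differed by a factor of 1.38. It was 5163 for the constitutive Saa4 and 335 for Saa3. Per kilobase, Saa1 stood at 33162 and Saa2 at 24024, at ranks 60 and 81 (206 and 270 with the longest transcripts). Saa1 and Saa2 together made up 94.9% of the family sum per kilobase, Saa4 4.09% and Saa3 1.0%. With the longest transcripts, which retain introns in both Saa1 and Saa2, those genes stood at 8257 and 6412 per kilobase and held 84.9% of the family sum, while the share of Saa4 was 14.3% and that of Saa3 0.881%.

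The distance between the inducible and the constitutive gene depends on the transcript lengths. Saa1 was 3.91 times Saa4 in mean normalized count and 13.5 times per kilobase, since the Saa4 transcript of 2094 bases is far longer than the 609 bases of Saa1. With the longest transcripts the ratio was 3.35. Saa3 was the lowest member on both scales. Saa1 was 60.3 times Saa3 in mean normalized count and 54.9 times per kilobase, with 604 per kilobase for Saa3 (152 with its longest transcript). The coding sequence of Saa3 was 75.7% identical to that of Saa1, and Saa4 was 65.0% identical to Saa1.

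**Figure D4:**
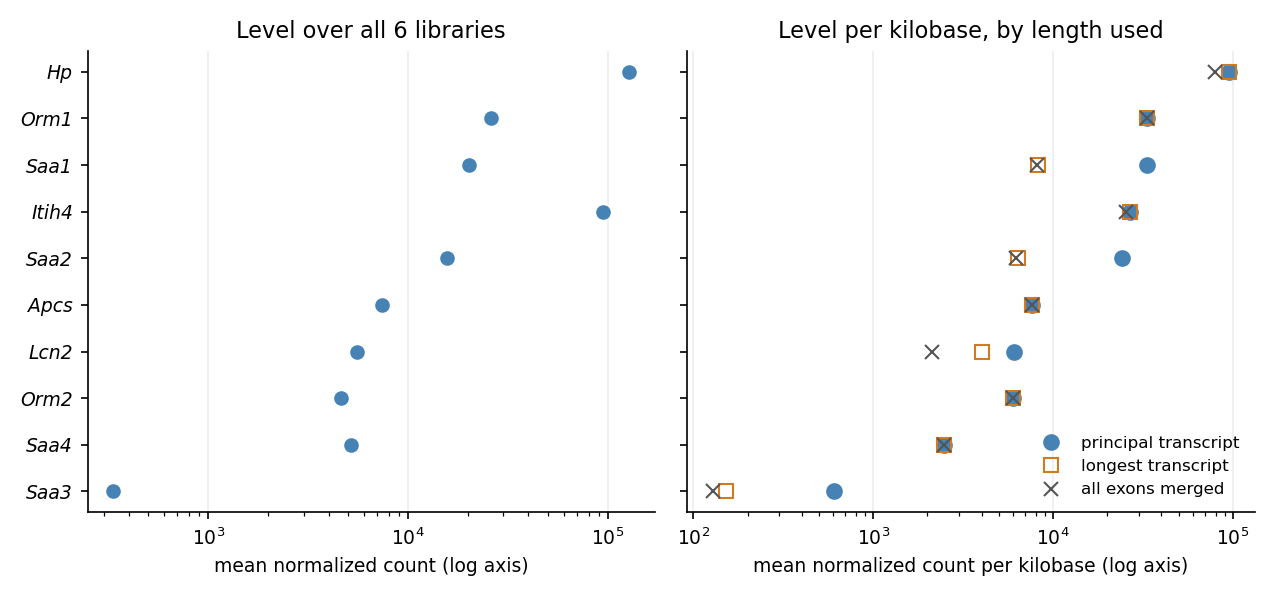
Left, mean normalized count over all 6 libraries for each member (x axis, log). Right, the same value per kilobase (x axis, log) with the length of the principal transcript (filled circles), of the longest transcript (open squares) or of all exons merged (crosses). Saa1, Saa2, Saa3 and Lcn2 move to lower levels with the longer lengths, and Hp stays highest with each.

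Lcn2 and Apcs were at intermediate levels. Lipocalin 2 withholds iron from bacteria by binding their siderophores and is made by hepatocytes and stored in neutrophil granules. Lcn2, at chr2:32384633-32388252, had a mean normalized count of 5541 and a level of 6055 per kilobase (4033 with its longest transcript). Apcs, at chr1:172893961-172895041 and with 2 exons, had 7423, or 7644 per kilobase. Crp, the other short pentraxin, is on the opposite strand. The nearer end of its annotated span of 135 kb lies 60.9 kb away, and its principal transcript holds 1695 bases in 2 exons. Where in the span that transcript lies was not looked up. Its mean normalized count was 12617, 1.70 times that of Apcs, whereas per kilobase the ratio was 0.974.

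The markers of the tissue were those of liver. Alb had the highest level per kilobase of all genes, and the 6 hepatocyte markers ranged from 5594 for Hnf4a to 1059757 for Alb per kilobase. The 9 neutrophil markers lay between 2.37 (Mmp8) and 138 (S100a9) per kilobase. Their mean normalized counts, 4 of 9 above 10, summed to 231. None of them was listed at 0. Lcn2 was 44.0 times S100a9 per kilobase, and 29.3 times with the longest transcripts. The neutrophil granule genes Ltf, Ngp and Camp had mean normalized counts of 36.2, 33.0 and 6.52. The 6 Kupffer cell markers ranged from 79.6 (Timd4) to 1166 (Cd5l) per kilobase. Saa3 at 604, or 152 with its longest transcript, lay within that range. Both values also lay within the ranges of the endothelial markers (70.7 to 737) and stellate cell markers (26.8 to 2366). The marker ranges are per kilobase of the principal transcript, so the 152 for Saa3 stands beside values with another length. The 3 adipocyte markers were all under 10, with mean normalized counts of 0.866 (Lep), 4.75 (Plin1) and 7.87 (Adipoq). How much of the Lcn2 or Saa3 signal each cell type contributed was not tested, and in bulk tissue fewer cells of a type and less RNA per cell cannot be told apart.

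The remaining marker lists lay lower than the hepatocyte list. Per kilobase, endothelial markers ranged from 70.7 to 737, stellate cell markers from 26.8 to 2366, biliary markers from 6.31 to 64.9 and lymphocyte markers from 4.94 to 15.6.

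Other genes of the acute phase response covered the range of the members and beyond. All 20 genes of a list of other positive acute phase genes had a mean normalized count above 10, with a median of 17378 per kilobase against 15834 for the members. The nearness of these medians depends on the length used, since with the longest transcripts they were 16326 and 7028. The fibrinogen genes Fga, Fgb and Fgg, whose product forms the clot, had mean normalized counts of 205492, 184798 and 132774. C3, the central complement component, was at 336360 and Cp, the copper carrier ceruloplasmin, at 48539. Hamp, which encodes the iron hormone hepcidin, was at 12276. At the low end, Cd14 was at 84.4 and Il1rn, the natural antagonist of interleukin 1, at 139.

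Negative acute phase genes had a higher median than the members. For the 8 genes of that list it was 136360 per kilobase, but they overlapped the members, since Ttr and Itih2, at 83498 and 17222 per kilobase, lay below Hp, and Serpina6 lay at 3415. Trf, the iron carrier transferrin, reached a mean normalized count of 482730 and Ttr, transthyretin, 99029. Serpina6, the corticosteroid carrier, was the lowest of the list with a mean normalized count of 5481.

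The receptors and factors that drive the response had a lower median than the members. For the 14 genes it was 412 per kilobase, ranging from 130 for Cebpd to 5594 for Hnf4a. The mean normalized count was 1088 for Il6ra and 2673 for Il6st, the binding and signalling chains of the interleukin 6 receptor. It was 2552 for Il1r1, 4547 for Stat3, 3711 for Cebpb and 1566 for Rela. Socs3, which feeds back on STAT3 signalling, stood at 551.

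Receptors and partners of the member proteins covered a wide range. Apoa1, the main apolipoprotein of the particles that carry serum amyloid A, was at a mean normalized count of 251501, and Scarb1, their hepatic receptor, at 7279. Cd163, the macrophage receptor for haptoglobin bound to haemoglobin, was at 450, and Lrp1, which takes up haem bound to hemopexin, at 20771. Slc22a17, a receptor for lipocalin 2, was at 33.3. Hmox1, the enzyme that degrades haem, was at 591. Fpr2, Tlr4 and Tlr2, receptors through which serum amyloid A is described to act, were at 17.1, 44.3 and 91.2.

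**Figure D5:**
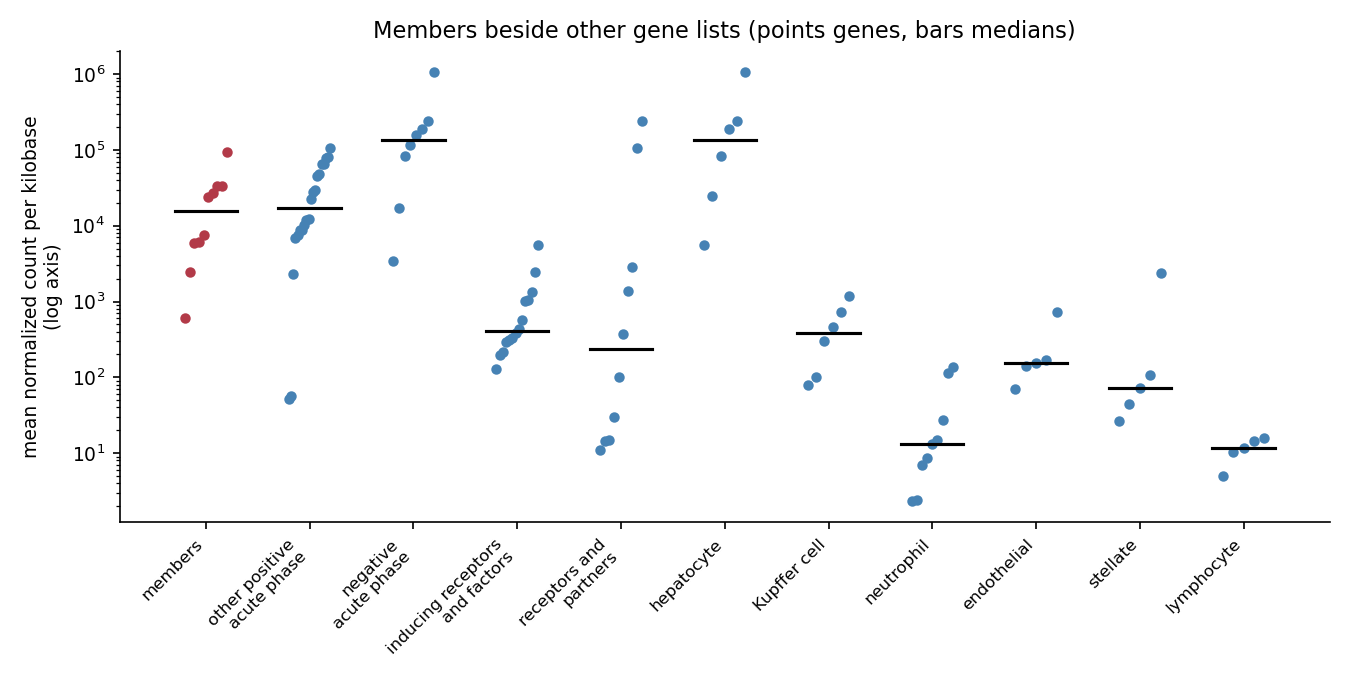
Mean normalized count per kilobase (y axis, log) of each gene (points) and the median (bars) for the members and 10 other lists (x axis). The members lie at a median of 15834, beside 17378 for the other positive acute phase genes and above the inducing receptors and factors at 412. Hpx, Alb, Apoa1, Ttr and Hnf4a each stand in more than 1 list.

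The promoters of the members were compared as RefSeq gives them on GRCm38.p6, from 250 bases before to 50 after the start. A promoter was found for 8 of the 10 members, without Orm1 and Hp. Those of Saa1 and Saa2 were 95.3% identical, with 14 differing columns in the alignment, as close as their coding sequences. The promoters of Orm2 and Orm3 were 86.2% identical, and that of Saa1 was 46.5% identical to Saa3 and 40.6% to Saa4. The letters TTNNGCAA, part of the C/EBP consensus, occurred on either strand in 6 of the 8, against 10.8% of 32851 promoters of the same length. They lay in Saa1, Saa2, Saa3, Saa4, Orm2 and Lcn2, and Saa1 and Saa2 count as near copies. TTCNNNGAA, bound by STAT factors, occurred on either strand in 2 of 8 (Apcs and Itih4) against 8.30%. A 10-letter form of the NF-kB consensus, with fixed letters at most positions, occurred on either strand in 0 of 8 against 1.63%. Other forms of that consensus were not searched, so the 0 does not show that NF-kB sites are absent. TATAAA occurred on the coding strand in 1 of 8 (Orm2) against 8.32%. No matches of different motifs overlapped. The 4 motifs were written down after the promoter sequences of the members had been seen, so these shares are descriptions of letters in a window and carry no test.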

How the data were processed

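Hepatic mRNA libraries of 3 WT and 3 Pai-1 heterozygous mice were sequenced as single-end reads of 75 bases. The authors aligned them to mm10 with STAR and ran DESeq2 in RNA Express; the submitters' processing notes also name HOMER. Versions, annotation and strand setting are not given in the sources used here. The signal values used were computed by the authors: DESeq2 scales every library by its size factor, and the scaled counts are averaged across both genotypes. The other columns of that table hold the authors' own comparison (fold changes, standard errors, statistics and p-values) and were not used. A second table holds 6 columns per animal that match no sample label, which were not used. The planned edgeR test was therefore not run, totals per library are not given, and the levels, planned as a description, are the result.

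Levels were divided by the length of the longest APPRIS principal transcript in GENCODE M21 (GRCm38), or of the longest transcript where none is marked. Of 12971 genes above 10, 96.4% matched 1 gene by symbol. Lengths, overlaps and windows thus come from an annotation that may differ from the authors'. Python 3.11.15, NumPy 2.4.6, pandas 2.3.3, Biopython 1.88 and Matplotlib 3.10.9 were used. The window search and the alignment were checked on made-up sequences with known answers. All 10 members and examples of each list were named. Beside the genes named in the results, the lists held Serpina3n, Serpina3m, Serpina1a, Serpina1b, Serpina1c, Crp, Lbp, Mbl2, Mt1, Mt2, Hpx and Itih3 (other positive acute phase genes), Alb, Rbp4, Apoa1, Ahsg and Itih2 (negative), Il1rap, Tnfrsf1a, Nfkb1 and Nr3c1 (receptors and factors) and Hpx (receptors and partners). The further markers were Apoa1, Ttr, Cyp2e1 and Cps1 for hepatocytes, Clec4f, Vsig4, Marco and Adgre1 for Kupffer cells, and S100a8, Cxcr2, Elane and Retnlg for neutrophils. Endothelial markers were Pecam1, Stab2, Clec4g, Lyve1 and Kdr, stellate cell markers Lrat, Reln, Dcn, Des and Col1a1, lymphocyte markers Cd3e, Cd3g, Cd79a and Ms4a1, and biliary markers Krt19, Krt7, Epcam and Sox9. The level of the targeted gene is not reported here, and 2 list genes that enter the lists' counts and medians are not named. The members and lists were chosen with earlier results of these data known. The length planned at first was that of the longest annotated transcript. The principal transcript was put in its place after the annotation, in which the longest Saa1 and Saa2 transcripts retain introns, and the levels not divided by length had been seen. The change raises the levels of Saa1, Saa2, Saa3 and Lcn2. Values with the planned length are given beside some of the results it moves, not all. With the longest transcripts, Saa1 was 1.29 times Saa2, Itih4 1.31 times Itih3 and Crp 0.871 times Apcs per kilobase. The median of the negative acute phase list was then 125022 per kilobase.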

Additional observations from a re-analysis of the deposited data

How the results depend on the processing

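The number of members in the highest 10% per kilobase was 9 with each length, without division by length and when all 17678 genes above 0 were ranked. The share of Orm1 among the Orm genes moved by less than 0.01 percentage points from 82.7%. The length mattered elsewhere. The longest transcript was the length planned at first, and the principal transcript used above was chosen after the data were seen. The members' median per kilobase, 15834, became 7028 with the longest annotated transcript and 6932 with all exons merged. The share of Saa1 and Saa2 among the Saa genes, 94.9%, became 84.9% with the longest transcript, 84.7% with all exons merged and 86.7% without division by length. The share of Saa4, 4.09%, became 14.3%, 14.5% and 12.5% in the same order. Under either longer length, the levels per kilobase of 4 members (Saa1, Saa2, Saa3 and Lcn2) were lower by over 1.5 times, and the other 6 moved by less. The longest Saa1 and Saa2 transcripts, of 2446 and 2443 bases, retain introns. Hp and Orm1 ranked first and second among the members with each length, while Saa1 fell behind Itih4 with both longer lengths. Undivided, Itih4 was second. All 10 members were above 10, above 100 and above 0, beside 12971 of all 24421 genes above 10 and 17678 above 0. No paired analysis was possible because no column of counts could be matched to a sample. For the same reason the alternatives of the genotype comparison (DESeq2, no filter, leaving out libraries) were not run. What depth limits could not be computed, since the mean carries no interval.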

Other observations

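Haemoglobin, the ligand of haptoglobin, could not be followed through the globin genes that were looked up. The level of Hba-a2 was not among them. Hba-a1, Hbb-bs and Hbb-bt were listed at 0, whereas Alas2, the erythroid enzyme of haem synthesis, had a mean normalized count of 2136. Of the 75-base windows of Hba-a1, 62.2% were also found in Hba-a2, and Hbb-bs and Hbb-bt shared 356 windows, or 64.3% and 56.6% of theirs. The remaining windows of these genes were unique among the annotated transcripts. What led to the values of 0 was not tested.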
